A study of Mus musculus with 4 samples.

Results

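High-globin erythroid cells are red blood cells and their precursors, caught in dissociated heart tissue, whose RNA is mostly globin. They were picked out of single-cell RNA sequencing of mouse heart ventricles collected at E12.5. Cells were chosen by measured values: a barcode was taken if it had at least 500 genes, under 20% mitochondrial UMIs (unique molecular identifiers, which count transcripts), under 1% of UMIs from 8 cardiomyocyte genes, at least 1 UMI of Alas2 and at least 70% of UMIs from globin genes. This gave 4140 of the 54074 barcodes that passed the gene and mitochondrial limits, out of 61172 barcodes in all. KO 1 and KO 2 held 1589 and 490 of them, and het 1 and het 2 held 724 and 1337. The levels of globin, Alas2, mitochondrial and cardiomyocyte genes helped to choose the cells, so they are described without a test wherever the rule bears on them.

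The KO embryos were Gata4fl/fl;Rosa26mTmG/+;Cdh5(Pac)-CreER+, and the het embryos were Gata4fl/+;Rosa26mTmG/+;Cdh5(Pac)-CreER+. Both groups therefore carried a tamoxifen-inducible Cre driven from Cdh5, an endothelial gene, and the mTmG reporter, and both received tamoxifen at E9.5. Each group had 2 libraries of cells freed with collagenase. Whether 1 embryo or a pool went into a library is not given by the labels. KO 1, het 1 and het 2 held RNA of both sexes, as given below, which points to more than 1 embryo in each. The spread between libraries may be partly technical. The KO and het comparison addresses loss of Gata4, a cardiac transcription factor, in the Cdh5 lineage.

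In the mouse embryo, primitive erythroid cells arise in the yolk sac and circulate while still nucleated. They carry the embryonic beta-like globins Hbb-y and Hbb-bh1 and the embryonic alpha-like globin Hba-x, beside Hba-a1 and Hba-a2. Definitive erythroid cells mature in the fetal liver, lose their nucleus, and carry the adult-type beta globins Hbb-bs and Hbb-bt with Hba-a1 and Hba-a2. Maturing primitive cells are known to switch from Hbb-bh1 to Hbb-y. Sox6 and Bcl11a are transcription factors known to repress embryonic beta-like globin genes in definitive cells.

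The promoters of 4 globin genes are shown because these genes mark the 2 kinds of cells described below. Each sequence runs from 250 bases before to 50 bases after the RefSeq start (GRCm38.p6), in the direction of the gene. Capitals mark GATAA (letters bound by GATA factors), CACCC (letters bound by Krüppel-like factors), the CCAAT box, and the TATA-like words TATAAA or, in another form, CATAAA. All were searched on both strands. Hbb-bs is at chr7:103827879-103828178 (minus strand) and Hba-a1 at chr11:32283422-32283721 (plus strand). Hbb-y is at chr7:103853158-103853457 (minus strand) and Hba-x at chr11:32276350-32276649 (plus strand).
Hbb-bs: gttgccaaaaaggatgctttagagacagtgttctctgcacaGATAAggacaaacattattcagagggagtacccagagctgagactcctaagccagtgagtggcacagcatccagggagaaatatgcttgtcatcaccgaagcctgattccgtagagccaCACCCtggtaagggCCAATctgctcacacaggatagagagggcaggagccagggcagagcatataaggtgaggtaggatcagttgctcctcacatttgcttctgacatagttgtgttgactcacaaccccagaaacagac
Hba-a1: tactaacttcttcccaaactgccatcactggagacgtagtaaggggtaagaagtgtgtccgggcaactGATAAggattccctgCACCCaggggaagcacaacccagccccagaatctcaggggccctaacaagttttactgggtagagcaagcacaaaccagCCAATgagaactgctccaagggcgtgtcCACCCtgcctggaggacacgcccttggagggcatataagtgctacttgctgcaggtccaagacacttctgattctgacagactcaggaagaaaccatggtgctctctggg
Hbb-y: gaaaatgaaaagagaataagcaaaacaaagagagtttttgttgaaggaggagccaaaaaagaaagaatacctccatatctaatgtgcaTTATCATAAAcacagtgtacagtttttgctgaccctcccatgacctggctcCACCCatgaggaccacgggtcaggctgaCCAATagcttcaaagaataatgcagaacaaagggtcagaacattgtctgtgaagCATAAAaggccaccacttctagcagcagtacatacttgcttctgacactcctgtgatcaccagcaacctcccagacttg
Hba-x: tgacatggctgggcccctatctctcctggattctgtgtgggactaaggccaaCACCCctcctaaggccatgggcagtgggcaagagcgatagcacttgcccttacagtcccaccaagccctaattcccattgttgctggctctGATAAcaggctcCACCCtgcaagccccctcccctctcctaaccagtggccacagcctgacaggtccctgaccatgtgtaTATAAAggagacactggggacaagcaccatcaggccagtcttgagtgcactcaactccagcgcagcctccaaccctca
GATAA and CACCC were found in all 4 windows, and in 25.4% and 57.5% of 32851 promoter windows of the same length. CCAAT was found in Hbb-bs, Hba-a1 and Hbb-y, and in 37.4% of all windows. Hbb-y had CATAAA at position -29 from the start and Hba-x had TATAAA at -28, letters present in 11.9% and 13.6% of all windows. Other TATA-like words were not searched. Hbb-bs and Hba-a1 both hold the letters catataag, left in lower case, so the capitals do not show that these windows lack a TATA box. In Hbb-y the GATAA match is on the other strand and overlaps a further CATAAA. These matches describe letters only.

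The matrices held 171252072 and 137890971 UMIs in KO 1 and KO 2, and 156491597 and 190207638 in het 1 and het 2. The smallest barcode of het 1 had 1841 UMIs, against 500 to 521 in the other libraries. A high-globin cell had a median of 15156 and 27987 UMIs in KO 1 and KO 2, against 14540 and 19145 in het 1 and het 2, of which 2525 and 4316, against 2658 and 3152, were not globin. KO 2 was thus the deepest per cell and had the fewest cells. One barcode was shared between libraries (KO 1 and het 2), and Scrublet called 96 of the cells doublets, which were kept. Ddx3y, a Y-linked gene, had 0 UMIs in KO 2 and 14.6 to 18.97 CPM (counts per 1e6 non-globin UMIs) in the other libraries. Xist, an RNA of female cells, had 222 and 169 CPM in KO and 123 and 59.0 in het. In barcodes with at least 5% cardiomyocyte UMIs, Xist had 84.2 to 169 CPM. Ddx3y there had 0 in KO 2 and 14.7 to 31.6 CPM in the other libraries. The mix of sexes thus differed between libraries, and its part in the KO and het comparison was not tested. Globin RNA outside red cells was scarce: barcodes with at least 5% cardiomyocyte UMIs had a median of 1.01% and 0.207% globin in KO 1 and KO 2, and 0.512% and 0.349% in het 1 and het 2.

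The share of high-globin cells differed more between the het libraries than between groups. It was 11.2% (95% Wilson interval 10.7 to 11.8) in KO 1 and 7.12% (6.54 to 7.76) in KO 2. It was 3.16% (2.94 to 3.398) in het 1 and 13.1% (12.49 to 13.8) in het 2, on either side of the KO values. These intervals cover counting error only. The means were 9.18 ± 2.91% in KO and 8.15 ± 7.05% in het (SD, n = 2 each), a difference of 1.04 points (exact two-sided permutation p = 1). With 2 libraries against 2, that test cannot go below 0.333. The direction turned without KO 1, without het 1, and when the share was taken of barcodes with at least 30% globin, of which the cells made up 75.3% and 69.01% in KO, against 61.1% and 83.3% in het.

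The marker genes were high in these cells, but the rule chose the cells by summed globin and by Alas2. Slc4a1 was not in the rule, and neither was the split between globins. Hbb-y was the leading globin in every library. Hbb-y made up 53.5% and 52.4% in KO, against 56.1% and 54.8% in het, as a percent of globin UMIs. Hba-x made up 7.67% and 9.01% in KO, against 8.97% and 10.3% in het, and Hbb-bh1 only 0.354% and 0.465% in KO, against 0.410% and 0.480% in het. Alas2, which starts haem synthesis in red cells, stood at 2749 and 3760.0 CPM in KO, against 3246 and 3823 in het, and at 1.52 to 7.75 CPM in cardiomyocyte-rich barcodes. Slc4a1, the band 3 anion exchanger of the red cell membrane, stood at 2857 and 2202 CPM in KO, against 2191 and 1603 in het, and at 2.22 to 13.7 CPM in cardiomyocyte-rich barcodes.

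Adult-type globins were present beside the embryonic ones. Hba-a1 and Hba-a2, near-identical copies that are summed here, made up 26.6% and 25.7% in KO, against 23.2% and 24.7% in het. Hbb-bs and Hbb-bt, also summed as close copies, made up 11.9% and 12.4% in KO, against 11.3% and 9.73% in het. Among beta-type UMIs the adult-type share was 18.04% and 18.9% in KO, against 16.6% and 14.97% in het, a difference of 2.69 points (exact permutation p = 0.333, the smallest possible). The libraries of the groups did not overlap, but the difference was -1.27 points at a globin limit of 80%.

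The embryonic alpha-like globin was a smaller part of alpha-type UMIs in KO. Hba-x took 22.4% and 25.9% in KO, against 27.9% and 29.4% in het, a difference of -4.45 points (exact permutation p = 0.333, the smallest possible). The groups did not overlap, but at a globin limit of 80% the difference was -2.63 points (exact permutation p = 0.667), and without KO 1 it was -2.69 points. It stayed negative in the 10 alternatives run for it. Hbb-bh1 as a share of Hbb-bh1 plus Hbb-y was 0.657% and 0.878% in KO, against 0.726% and 0.869% in het, and the groups overlapped. Alpha-type UMIs were 34.3% and 34.7% in KO, against 32.2% and 35.02% in het, of all alpha-type and beta-type UMIs, and overlapped too.

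Single cells ranged from a large group with little adult-type beta to a small one with almost only adult-type beta, and the 288 cells at 25 to under 75% outnumbered the 210 at 75% or more. In 3642 cells under 25% of beta-type UMIs were adult-type, and in 202 cells 95% or more were (76 and 44 in KO, 31 and 51 in het). Cells at 50% or more are called adult-beta-rich (275 cells) and the others embryonic-beta-rich (3865 cells), and 90 cells lay within 10 points of that limit. The adult-beta-rich share was 7.36% (95% Wilson interval 6.18 to 8.75) in KO 1 and 10.6% (8.18 to 13.7) in KO 2. It was 5.52% (4.08 to 7.44) in het 1 and 4.94% (3.90 to 6.23) in het 2. Both KO libraries were above both het libraries, with means of 8.99 ± 2.30% and 5.23 ± 0.416% (SD, n = 2 each) and a difference of 3.76 points (exact permutation p = 0.333, the smallest possible). At a globin limit of 80% the shares were 4.31% and 6.14% in KO, against 5.63% and 3.90% in het, which overlapped (difference 0.457 points). The difference was 8.61 points at a limit of 60%, 6.74 with at least 1000 genes and 2.13 without KO 2. These limits were tried after the values were seen.

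**Figure D1:**
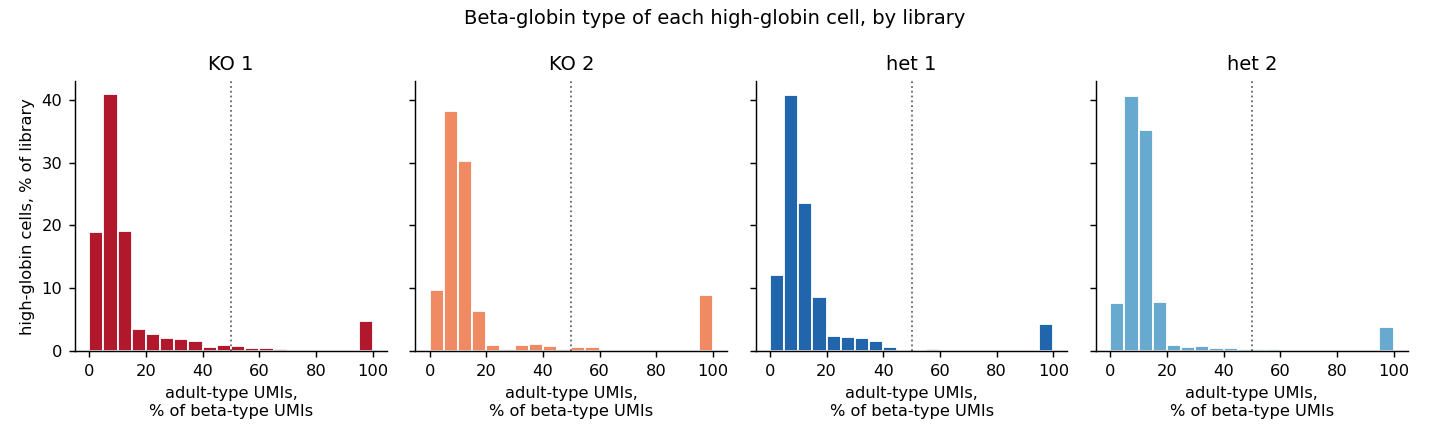
Adult-type share (Hbb-bs plus Hbb-bt) of each cell's beta-type UMIs in 5-point bins, as a percent of the high-globin cells of each library (KO 1, KO 2, het 1, het 2). Most cells lie under 25%, and a separate group of 31 to 76 cells per library lies at 95% or more.

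Alpha-type globins, which the split did not use, followed the beta type. The median Hba-x share of alpha-type UMIs was 0.183% and 0.0384% in adult-beta-rich cells of KO 1 and KO 2, and 0.158% and 0.146% in those of het 1 and het 2. Embryonic-beta-rich cells had 23.3% and 27.6% in KO, and 29.3% and 30.4% in het. Over the summed UMIs of adult-beta-rich cells, the Hba-x share was higher than its median, at 6.22% and 4.55% in KO and 3.41% and 6.52% in het. Of 211 cells with under 5% Hba-x, 206 had at least 75% adult-type beta. The name embryonic thus goes against the globins of the adult-beta-rich cells. Globin RNA in cardiomyocyte-rich barcodes was taken as a measure of free RNA. Among its beta-type UMIs, 25.98% and 46.6% were adult-type in KO, against 14.8% and 17.8% in het. Among its alpha-type UMIs, Hba-x took 17.2% and 10.3% in KO, against 22.2% and 24.3% in het. The groups did not overlap in either share, and both differences had the direction seen in the high-globin cells. The part of free RNA in the KO and het differences was not tested.

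The cells with 25 to under 75% adult-type beta made up 9.94% and 5.31% of the cells in KO, against 7.73% and 3.59% in het, and the groups overlapped (difference 1.96 points, exact permutation p = 0.667). Their median Hba-x share was in between as well, at 15.3% and 18.03% in KO and 20.8% and 19.1% in het. They had a median of 32688 and 47691 UMIs in KO and 15630 and 38214 in het. Over all libraries that was 33559.5 UMIs, against 12746 in cells at 75% or more and 17544 in cells under 25%. Scrublet called 7 of them doublets. The part of droplets that held a cell of each kind was not tested.

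**Figure D2:**
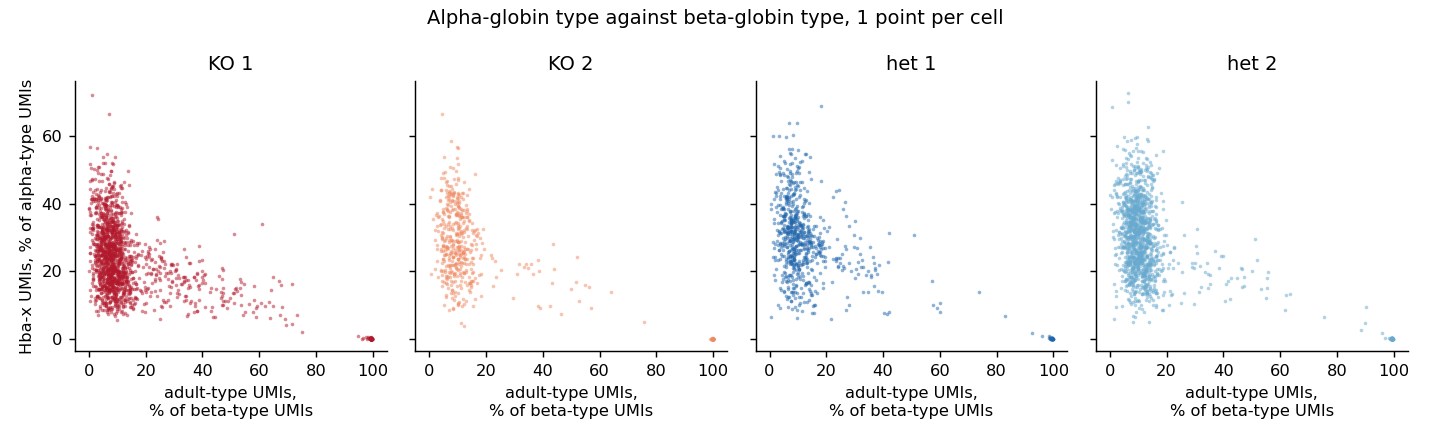
Hba-x as a percent of alpha-type UMIs (vertical axis) against adult-type as a percent of beta-type UMIs (horizontal axis), 1 point per high-globin cell, by library (KO 1, KO 2, het 1, het 2). Cells near 100% adult-type beta lie near 0% Hba-x, and the 288 cells in between have median Hba-x shares of 15.3% to 20.8%.

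Within the cells under 25% adult-type beta, the embryonic alpha-like and beta-like globins varied together. The cells were ranked by Hba-x and cut into 4 groups of like size. From the lowest to the highest group, Hbb-bh1 as a share of Hbb-bh1 plus Hbb-y was 0.397, 0.515, 0.653 and 1.09% in KO 1, and 0.576, 0.662, 0.949 and 1.37% in KO 2. It was 0.428, 0.618, 0.701 and 1.27% in het 1, and 0.481, 0.745, 0.949 and 1.39% in het 2. The order was the same in the 4 libraries. Across cells, Spearman's rho of the Hba-x and Hbb-bh1 shares was 0.457 and 0.458 in KO (1354 and 419 cells), and 0.453 and 0.511 in het (635 and 1234 cells). These are descriptions over cells that share a library. Against total UMIs, rho of the Hba-x share was -0.0527 to 0.00281. Against the globin share of the cell it was -0.362 and -0.499 in KO, and -0.344 and -0.475 in het.

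Outside globin, transcripts of iron storage and redox defence were among the most abundant. Levels of genes from here on are CPM of non-globin UMIs scaled by TMM, which corrects for composition, unless said otherwise. Fth1, the heavy chain of the iron store ferritin, had 58076 and 96779 scaled CPM in KO and 69849 and 89430.5 in het. Ftl1, the light chain, had 32084 and 50584 in KO and 37029 and 43199 in het. Prdx2, which removes peroxide, had 9350.2 and 17808 in KO and 10656 and 14047 in het. Malat1, a nuclear noncoding RNA, Nudt4, Gpx1 (another peroxide-removing enzyme), Blvrb, Bpgm, Car2 (a carbonic anhydrase) and Bnip3l (a receptor for clearing mitochondria) were also among the 20 most abundant genes. Alas2 was among them too. None of the other 19 was called between KO and het, with adjusted p from 0.863 to 0.999.

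The adult-beta-rich cells were compared with the embryonic-beta-rich cells of the same library, to see what else goes with the beta type. Globin genes were left out. Of 6135 genes tested, 1023 were higher and 843 lower (edgeR quasi-likelihood test with library as a block, Benjamini-Hochberg adjusted p under 0.05), or 16.7% and 13.7% of genes and 30.4% together. Counts of calls in the lists below are to be set against these shares. Without scaling beyond library size the median log2 difference of all genes was 0.16, and the split was 1209 higher and 606 lower. With the scaling used it was -0.00, which is the value to set the medians of lists against. The adult-beta-rich cells had a median of 2948 and 4427 non-globin UMIs in KO and 2113 and 2829.5 in het, and the embryonic-beta-rich cells 2508 and 4304 in KO and 2679.5 and 3155 in het. Their median globin share was 77.7% and 79.1% in KO and 80.8% and 81.4% in het, against 82.6% and 84.7% in KO and 80.2% and 83.3% in het for embryonic-beta-rich cells. The part of globin share in the gene differences was not tested. In the adult-beta-rich sums, cells at 75% or more adult-type beta gave 207249 of 525699 non-globin UMIs in KO 1 and 217912 of 297103 in KO 2. They gave 89060 of 115037 in het 1 and 156468 of 227095 in het 2, and the rest came from cells at 50 to under 75%.

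Red cell membrane genes were among the most different. Slc2a1, the glucose transporter GLUT1 (chr4:119108711-119137983), had 1121 and 1733 scaled CPM in adult-beta-rich cells of KO 1 and KO 2, and 410.0 and 1326 in those of het 1 and het 2. The embryonic-beta-rich cells had 159.6 and 144 in KO, and 25.5 and 59.8 in het. The kinds of cells did not overlap, with a log2 difference of 3.68 ± 0.20 (SE; edgeR adjusted p = 9.81e-23). Cd47, which protects cells from phagocytes, averaged 914 ± 342 in adult-beta-rich cells and 77.7 ± 60.8 in embryonic-beta-rich cells (SD over 4 libraries, as for all means below), and Cd24a, a surface glycoprotein, 3089.7 ± 686 against 506 ± 107. Slc4a1 differed less, at 3734 ± 662 against 2162 ± 321 (log2 0.78 ± 0.14). Of 21 membrane and skeleton genes tested, 15 rose and 1 fell, with a median log2 difference of 1.01.

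Haem synthesis genes were higher at most steps. Alad, Urod and Cpox, enzymes of the middle of the pathway, averaged 2269 ± 508, 1291 ± 415 and 864 ± 487 scaled CPM in adult-beta-rich cells. They averaged 649.8 ± 133, 383 ± 98.8 and 214 ± 95.5 in embryonic-beta-rich cells, and each was higher in 4 of 4 libraries. Fech, the last enzyme, rose by 0.81 on the log2 scale (edgeR adjusted p = 7.94e-06). Of 11 genes tested other than Alas2, 8 rose, none fell and 3 were not called, with a median log2 difference of 1.10. Alas2, the first enzyme, helped to choose the cells and averaged 5973 ± 1560 against 3446 ± 925.

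Iron genes went in both directions. Slc25a37, the mitochondrial iron importer mitoferrin, averaged 4579 ± 201 against 1197 ± 216 scaled CPM, and Tfrc, the transferrin receptor that brings iron in, 709.6 ± 404 against 203 ± 85.3. Fth1 was lower, with 34389 and 42394 in adult-beta-rich cells of KO 1 and KO 2 and 42816 and 37430.1 in those of het 1 and het 2. In embryonic-beta-rich cells it had 64864 and 107235 in KO and 76199 and 98353 in het, above every adult-beta-rich value (log2 -1.12 ± 0.14, edgeR adjusted p = 9.76e-10). Hmox1, which breaks down haem, averaged 109 ± 66.4 against 834 ± 167. Ftl1 fell as well (log2 -0.51 ± 0.14, edgeR adjusted p = 0.00241), but not without KO 1 (adjusted p = 0.226) or without het 2 (adjusted p = 0.108). Of 18 iron genes tested, 7 rose and 6 fell.

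Genes of G2 and M phase were higher throughout. All 18 tested rose, with a median log2 difference of 1.95. Their summed level (CPM without TMM) was 9329 and 6981 in adult-beta-rich cells of KO 1 and KO 2 and 4016 and 5782 in those of het 1 and het 2. The sum was 1922 and 828 in embryonic-beta-rich cells of KO and 944 and 622 in those of het, below every adult-beta-rich value. Ube2c, a ubiquitin-conjugating enzyme of mitosis, averaged 1922 ± 286 against 201 ± 57.3 scaled CPM. Mki67, a proliferation marker, had 3147 and 2528 in adult-beta-rich cells of KO and 623 and 1664 in those of het, against 672 and 329 in embryonic-beta-rich cells of KO and 206 and 187 in those of het. It was higher within each library, although het 1 adult-beta-rich cells lay below KO 1 embryonic-beta-rich cells. Of 16 S phase genes 4 rose, Rrm2 and Tyms among them, and none fell, beside 16.7% and 13.7% of all genes. Of 9 genes of cell cycle exit, Btg2 rose and 3 fell, Btg1 among them, but without scaling beyond library size 3 rose and 2 fell.

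Genes listed under chromatin condensation and enucleation and under ubiquitin were more often higher. They rose in the same cells as the G2 and M phase genes, and the part of cell division in this was not tested. Of 16 chromatin condensation and enucleation genes, 10 rose and none fell (1 fell with RLE scaling), with a median log2 difference of 1.16. Xpo7, a nuclear transport receptor needed for nuclear condensation, averaged 1993 ± 541 against 383 ± 123 scaled CPM, and Diaph3, a formin, 262 ± 84.2 against 30.6 ± 14.4. Of 17 ubiquitin genes 9 rose and 1 fell, with Ubac1 at 813 ± 207 against 117 ± 38.6 and Trim10 at 1611 ± 245 against 468 ± 69.00. Autophagy genes were mixed, with 3 up and 4 down of 13, or 4 up and 3 down without scaling beyond library size. Gabarapl2 averaged 1654 ± 507 against 649.5 ± 99.2, whereas Bnip3, a receptor for clearing mitochondria, averaged 119 ± 34.8 against 537 ± 84.8 and Sqstm1, a cargo adaptor, 290.1 ± 102 against 1023 ± 42.1.

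Erythroid transcription factors split, with 7 up and 5 down of 20. Lmo2 averaged 492 ± 140.4 against 51.99 ± 21.9 scaled CPM, and E2f2, a cell cycle factor, 304 ± 80.5 against 41.6 ± 19.8. Klf1, an activator of adult beta globin, averaged 306 ± 109.5 against 88.3 ± 12.98, and Tal1, another erythroid factor, 418 ± 196 against 785 ± 101.1. Sox6 (chr7:115470872-116038796) had 317 and 396 in adult-beta-rich cells of KO 1 and KO 2 and 166 and 226 in those of het 1 and het 2. Embryonic-beta-rich cells had 53.4 and 29.3 in KO and 10.3 and 4.68 in het. The kinds of cells did not overlap (log2 3.73 ± 0.26, edgeR adjusted p = 2.59e-18). Of 9 listed genes that silence embryonic globin, 7 were tested, 2 rose and 1 fell, or 3 and none without scaling beyond library size. Bcl11a and Myb were too low to be tested.

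Stress, redox and signalling genes were mixed or lower. Of 12 immediate early and heat shock genes, 1 rose and 7 fell, with Hsph1 at 22.6 ± 10.5 against 93.3 ± 23.7 and Fos at 45.9 ± 8.57 against 127 ± 9.53 scaled CPM. Of 17 antioxidant genes 4 rose and 8 fell. Gpx1 averaged 24917 ± 3617 against 10569.8 ± 1288, whereas Selenow averaged 1288 ± 233 against 3481 ± 510.4 and Sod1, a superoxide dismutase, 210.3 ± 37.96 against 544 ± 60.9. Prdx2 averaged 20127 ± 4417 against 12945 ± 3343, a call lost without KO 1 (edgeR adjusted p = 0.208). Of 9 erythropoietin and stem cell factor signalling genes, 3 rose, the survival factor Bcl2l1 among them, and 3 fell, Stat5a and Stat5b among them. Of 7 gas exchange and chaperone genes, Car1, Car2 and Eif2ak1 (the haem-regulated kinase) rose and 3 fell, Hspa8 and Hsp90aa1 among them. Of 18 glycolysis and pentose phosphate genes, Pklr and Tkt rose and 4 fell, Gapdh among them (3 and 3 without scaling beyond library size). Of all genes, 30.4% were called. Genes encoded in mitochondria, whose summed share the choice of cells limited, are given without a test, as for mt-Co1 at 1151 ± 192 against 529 ± 54.9.

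The genes with the lowest p also held some outside these lists. Mpp1, a membrane scaffold, averaged 906 ± 179.8 against 73.3 ± 22.1 scaled CPM, Specc1 797 ± 248.5 against 73.7 ± 45.3, Tfdp2, a partner of E2F factors, 1429 ± 148 against 176 ± 48.7, and Gmpr 649.6 ± 127 against 66.4 ± 21.1. Of those that fell, Nudt4, which encodes a diphosphoinositol polyphosphate phosphatase, led. It had 4702 and 4552 in adult-beta-rich cells of KO 1 and KO 2 and 2121 and 3892 in those of het 1 and het 2. In embryonic-beta-rich cells it had 16372 and 26485 in KO and 18265 and 22758 in het, with no overlap (log2 -2.49 ± 0.16, edgeR adjusted p = 4.79e-20). Fam174b, Tuba1a (an alpha-tubulin), Slc38a2 (an amino acid transporter), Pdzk1ip1, Ackr3 (a chemokine receptor), Trib3 and Amot fell too, each in 4 of 4 libraries, with log2 differences of -3.14 to -2.03.

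**Figure D3:**
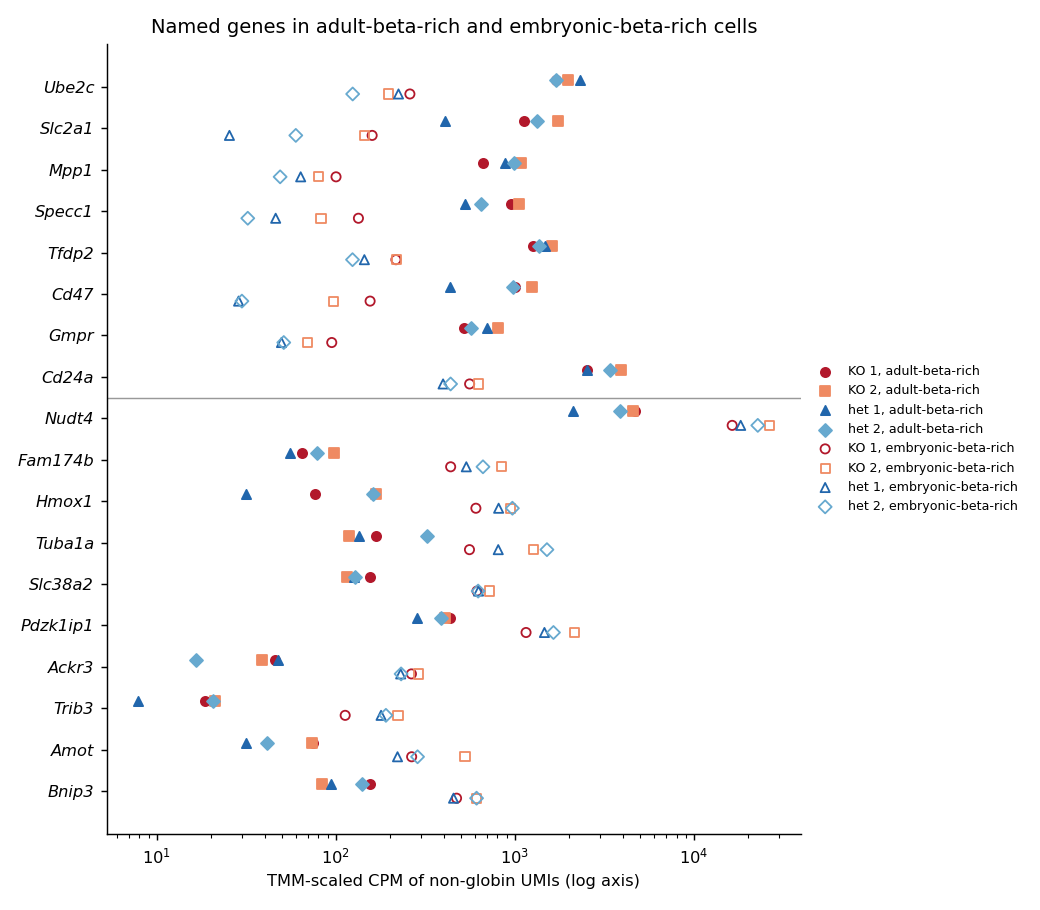
Scaled CPM (log axis) of 18 genes named by rank, in adult-beta-rich cells and embryonic-beta-rich cells, 1 marker per library. The genes that rose were higher, and those that fell lower, in adult-beta-rich cells of 4 of 4 libraries, as for Slc2a1 with 410.0 to 1733 against 25.5 to 159.6.

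Cardiomyocyte genes outside the rule lay below their level in cardiomyocyte-rich barcodes in both kinds of cells, and the rule's limit on 8 such genes bears on this. Sums for other cell types are given without a reference level. Of 14 cardiomyocyte genes outside the rule, Tpm1 rose (log2 0.45 ± 0.16, edgeR adjusted p = 0.0246), a call lost when any 1 library was left out (adjusted p = 0.0553 to 0.476) and with RLE scaling. They summed to 3538 and 3813 CPM (without TMM, as for all sums) in adult-beta-rich cells of KO and 6433 and 4355 in those of het. In embryonic-beta-rich cells they summed to 4595 and 1965 in KO and 4731 and 2835 in het, and in cardiomyocyte-rich barcodes to 41689 to 45459. The 12 endothelial genes summed to 80.8 to 145 CPM in adult-beta-rich and 78.7 to 169.9 in embryonic-beta-rich cells. The 12 macrophage genes summed to 53.9 to 165 and 33.9 to 107 CPM, the 10 mesenchymal genes to 228 to 356 and 211 to 369, and the 8 epicardial genes to 30.8 to 41.8 and 21.5 to 48.8. The 11 megakaryocyte genes, of which 6 to 8 were at 0 in adult-beta-rich cells, summed to 304 CPM in those of het 1 and to 13.5 to 57.2 in the other libraries. Their part in the results was not tested.

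The green reporter marks Cre activity and was detected at low levels in both kinds of cells. EGFP stood at 76.1 and 70.7 CPM (without TMM) in adult-beta-rich cells of KO 1 and KO 2 and at 156 and 211 in those of het 1 and het 2. In embryonic-beta-rich cells it stood at 106 and 69.2 in KO and 128 and 148 in het. It was higher in adult-beta-rich cells of 3 of 4 libraries, by 0.09 ± 0.42 on the log2 scale (SD, n = 4; exact two-sided sign-flip p = 0.625), and the direction turned without het 2 (log2 -0.05). These levels rest on 18 to 48 UMIs in adult-beta-rich cells, and cardiomyocyte-rich barcodes had 29.8 to 55.5 CPM. The sequence named dsRed stood at 129 and 131 CPM in adult-beta-rich cells of KO and 69.5 and 172 in those of het. It stood at 343 and 267 in embryonic-beta-rich cells of KO and 284 and 331 in those of het. It was lower in adult-beta-rich cells of 4 of 4 libraries, by a log2 difference of -1.34 ± 0.49 (SD; exact sign-flip p = 0.125, the smallest possible), and the edgeR adjusted p over all genes was 3.65e-08.

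Gata4, the targeted gene, was low in these cells. It stood at 20.9 and 10.9 CPM (without TMM) in KO, against 15.8 and 13.4 in het, which overlap, and at 58.2 to 66.2 CPM in cardiomyocyte-rich barcodes. Counts of the whole gene do not show whether the floxed part was lost. The added sequence FloxGata4 had 0 UMIs, which allows up to 0.526 and 1.25 CPM in KO 1 and KO 2 and up to 1.18 and 0.639 CPM in het 1 and het 2. FloxGata4_ctrl had 4 and 0 UMIs in KO and 2 and 3 in het.

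Between KO and het, 55 of 9354 genes were higher in KO and none was lower (edgeR quasi-likelihood test, adjusted p under 0.05), or 0.588% of genes. Without KO 1 there were 200 higher and 56 lower, without KO 2 322 and 72, without het 1 55 and 4, and without het 2 79 and 4. At a globin limit of 60% there were 235 higher and 5 lower, and without a filter on low counts 191 and 12. At an unadjusted p under 0.05 there were 773 genes, 563 higher and 210 lower. DESeq2 called 63 higher and limma-voom 49, and neither called a lower one. Fewer cells with a transcript and less of it per cell cannot be told apart in these sums. Itga4, an integrin chain of blood progenitors (chr2:79255426-79333123), had 41.1 and 30.7 scaled CPM in KO, against 4.26 and 5.31 in het. The libraries of the groups did not overlap, with a log2 difference of 2.90 ± 0.30 (SE; edgeR adjusted p = 0.00278). Sox6 had 73.6 and 80.8 scaled CPM in KO, against 16.7 and 16.8 in het (log2 2.20 ± 0.23, edgeR adjusted p = 0.00278).

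The other leading genes included erythroid and histone genes. Hemgn, a nuclear protein of blood cell precursors, had 234 and 234 scaled CPM in KO, against 48.9 and 73.4 in het. Abcg2, a transporter that exports porphyrins, had 139.8 and 150.2 scaled CPM in KO, against 35.8 and 52.4 in het. Specc1 had 199 and 219.6 scaled CPM in KO, against 64.9 and 65.1 in het. Nxpe2, Dennd4a and Tmem131l rose by 2.32, 2.16 and 1.85 on the log2 scale. Hist1h2ap and H1f5, histone genes of a multicopy family whose counts are therefore uncertain, rose by 2.37 and 2.43. Without het 1 the calls for Hemgn, Specc1 and Abcg2 were lost (edgeR adjusted p = 0.155, 0.124 and 0.194). The 5 genes with the lowest p among those below 0 were Marcksl1, Ramp2, Akr1b3, Id3 and Igfbp4, with log2 differences of -1.05 to -0.83 and edgeR adjusted p of 0.0838 to 0.198. Without KO 2 all 5 passed (adjusted p = 0.000922 to 0.0130).

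Among the lists, genes of G2 and M phase had most calls. Cenpf, Nusap1, Cenpe and Mki67 rose, the other 14 of 18 were not called, and all 18 had a positive log2 difference (median 0.73, against 0.00 over all genes). Mki67 had 852 and 637 scaled CPM in KO, against 211 and 259 in het (log2 1.66 ± 0.29, edgeR adjusted p = 0.0203), a call lost without het 1 (adjusted p = 0.762) or het 2 (adjusted p = 0.185). Cd47 was the 1 of 22 membrane genes that rose, with 222 and 258 scaled CPM in KO, against 45.03 and 81.01 in het, and the list's median log2 difference was 0.51. E2f2, Sox6, Diaph3 and Rb1 were the other list genes called. Without scaling beyond library size, Cenpf, Nusap1, Cenpe, E2f2, Diaph3 and Rb1 lost the call, which left 1 of the G2 and M phase genes. Without het 1, Cd47, Cenpf, Nusap1, Cenpe, E2f2, Diaph3 and Rb1 lost the call as well. In embryonic-beta-rich cells alone, Cenpf, Nusap1, Cenpe, Mki67, E2f2, Diaph3 and Rb1 lost the call (edgeR adjusted p = 0.0535 to 0.376). No gene of the haem, iron, antioxidant, autophagy, ubiquitin, glycolysis or S phase lists, or of the lists of other cell types, was called, beside 0.588% of all genes. The S phase list held no histone genes, and histone genes besides Hist1h2ap and H1f5 were called higher in KO. The median log2 difference of 12 haem genes other than Alas2 was 0.51, with 11 above 0. Markers of some other cell types lay the other way, with medians of -0.74 for mesenchymal genes (1 of 10 above 0), -0.67 for macrophage genes (2 of 10) and -0.47 for endothelial genes (2 of 11). The median was -0.20 for cardiomyocyte genes outside the rule (2 of 14), -0.36 for megakaryocyte genes (1 of 2) and only -0.05 for epicardial genes (2 of 5). Mesenchymal genes summed to 263 and 213 CPM (without TMM) in KO, against 368 and 270.1 in het, and macrophage genes to 79.8 and 36.3 in KO, against 109 and 83.3 in het, with no overlap of the groups. Endothelial genes summed to 145 and 78.95 in KO, against 168 and 144 in het, which overlapped. Their part in the KO difference was not tested. Slc4a1 differed by 0.46 ± 0.36 (adjusted p = 0.862).

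The calls depended on which cells were summed. In cells under 25% adult-type beta, a subset chosen after seeing the data, edgeR called no gene. It gave 224 genes at an unadjusted p under 0.05 and a lowest adjusted p of 0.998. No other tool was run on these cells. The log2 differences of the 10 leading genes there were 0.50 (Hemgn) to 2.21 (Sox6), against 1.68 (Specc1) to 2.90 (Itga4) in all cells. In all embryonic-beta-rich cells 27 genes were called, 24 of them among the 55. At a globin limit of 80% there were 2, and of the 10 leading genes Dennd4a alone kept its call. In adult-beta-rich cells alone 2 of 2519 genes were called, neither among the 55. Both KO libraries lay above both het libraries for 7 of the 10 leading genes in cells under 25%, for 10 in cells of 25 to under 75% and for 8 in cells at 75% or more, which is a description, since the same cells chose the genes.

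Sox6 followed the beta type in both groups. In cells under 25% adult-type beta it had 23.4 and 6.28 CPM in KO, against 6.07 and 1.65 CPM in het (without TMM). In cells of 25 to under 75% it had 229 and 267 CPM in KO, against 65.9 and 63.2 CPM in het. At 75% or more it had 381 and 367 CPM in KO, against 157 and 300.4 CPM in het. In every range both KO libraries were above both het libraries, but under 25% KO 2 (6.28 CPM) was barely above het 1 (6.07 CPM). This order is a description, since the same cells chose Sox6. Sox6 was not called in cells under 25% (log2 2.21, edgeR adjusted p = 0.998) or in adult-beta-rich cells alone (log2 0.67, edgeR adjusted p = 0.565). Itga4 had 145 and 82.6 CPM in KO, against 6.59 and 9.99 CPM in het in the middle range, and Mki67 had 2748 and 1757 CPM in KO, against 613 and 776 CPM in het there. The sums of that range held 1348604 and 266293 non-globin UMIs in KO, against 303472 and 300418 in het. The Itga4 values in het thus rest on very few UMIs, and the size of that difference is uncertain. In cells under 25%, Mki67 had 345 and 109 CPM in KO, against 158 and 147 CPM in het, so that the groups overlapped. The middle cells had a median of 1739.5 and 1968 genes in KO, against 976 and 1309 in het, and the part of this in the KO difference was not tested.

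**Figure D4:**
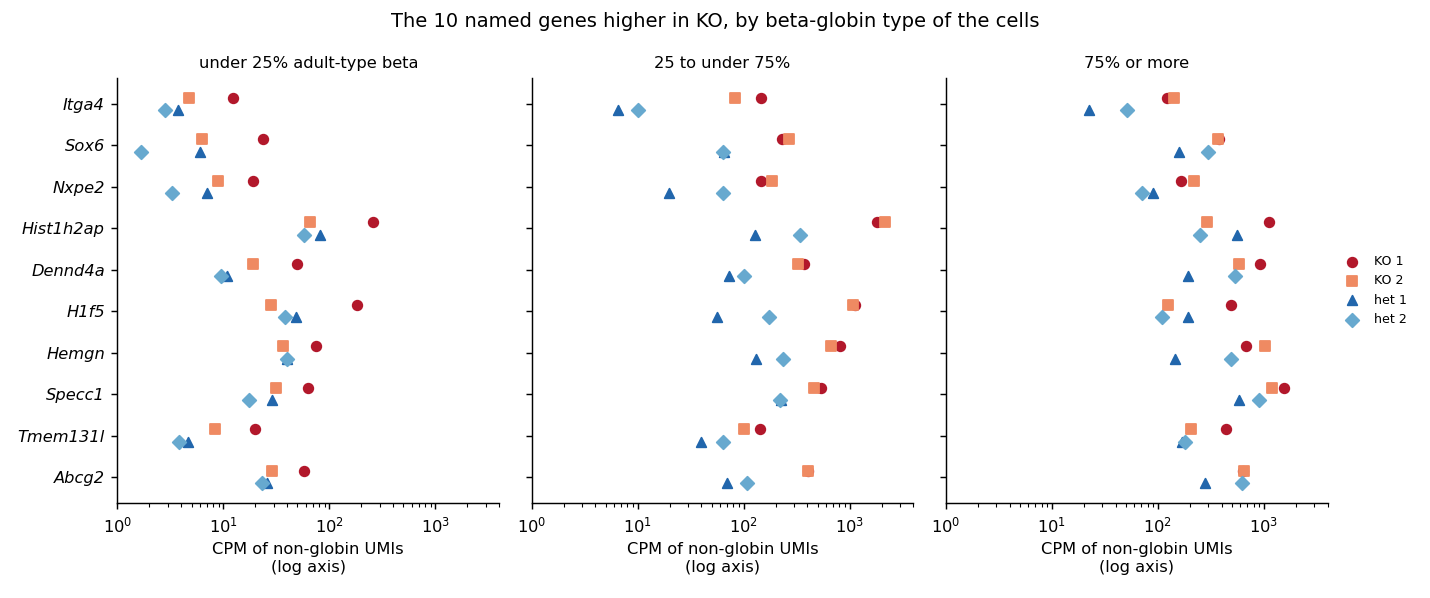
CPM of non-globin UMIs (without TMM, log axis) of the 10 leading genes in cells with under 25%, 25 to under 75%, and 75% or more adult-type beta, 1 marker per library (KO 1, KO 2, het 1, het 2). In the middle range both KO libraries lie above both het libraries for all 10 genes, which is a description, since the same cells chose the genes.

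The globin share of a cell went with its other genes, and the rule cuts this range at 70%. The values here are summed CPM without TMM in cells with 50 to under 70%, 70 to under 80% and 80 to under 90% globin, given without a test. Genes of G2 and M phase summed to 8616, 4425 and 1012 in KO 1 and 11309, 3797 and 796 in KO 2. They summed to 3332, 1385 and 809 in het 1 and 5670.5, 1764 and 471 in het 2. They were lower with more globin in each library. Iron handling genes, ferritin included, summed to 54229.6, 88293 and 130834 in KO 1 and 56543, 86388 and 146522 in KO 2. They summed to 54488, 105254 and 141852 in het 1 and 53734, 95867 and 142316 in het 2, and were higher with more globin in each library. The beta type changed along the same range. Adult-beta-rich cells made up 37.2, 13.6 and 4.22% in KO 1 and 65.4, 28.3 and 5.70% in KO 2. They made up 15.4, 7.71 and 3.91% in het 2, but 2.51, 5.41 and 5.39% in het 1. The part of beta type in these trends was not tested.

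**Figure D5:**
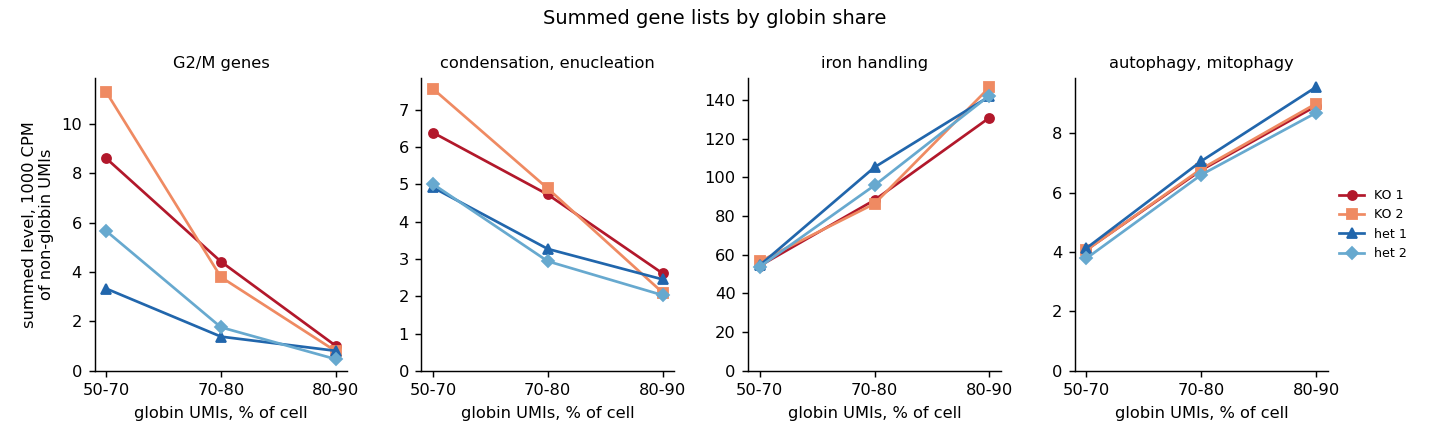
Summed CPM of non-globin UMIs of 4 gene lists by globin share of the cell, 1 line per library (KO 1, KO 2, het 1, het 2). G2 and M phase and condensation genes are lower, and iron handling and autophagy genes higher, in cells with more globin.

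The limit also bears on the mix of cells. There were 80 and 10 cells with 70 to under 72% globin in KO 1 and KO 2 and 61 and 40 in het 1 and het 2. With 68 to under 70% there were 55 and 25 in KO and 39 and 47 in het. Just inside the limit adult-type UMIs were 34.5% and 46.9% in KO, against 16.6% and 18.2% in het, of beta-type UMIs, and just outside it 37.5% and 67.5% in KO, against 18.6% and 19.7% in het. In all cells of 50 to under 70%, which meet the rest of the rule and number 927, adult-beta-rich cells made up 37.2% and 65.4% in KO, against 2.51% and 15.4% in het.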

How the data were processed

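Single-cell libraries of E12.5 ventricles (2 KO, 2 het) were analysed from the UMI count matrices the authors deposited, made with Cell Ranger 6.0.1 per the file headers; mm10, Cell Ranger and Seurat are named in the submitters' processing notes. The labels name both a 3′ v2 and a Chromium Next GEM kit. Counts of 55405 gene rows were used as deposited, and 54349 matched GENCODE M21 for coordinates. The high-globin cells of each library were summed, without the 14 globin genes, and tested with edgeR 4.0.16 (quasi-likelihood, TMM, filterByExpr, Benjamini-Hochberg at 0.05), with library as a block for the beta-type comparison, and the fits were tested on simulated data. DESeq2 1.42.0, limma 3.58.1 and other limits, splits and scalings were alternatives. Scrublet's threshold failed in KO 2 and het 1, where the median threshold 0.3232 was used, chosen after the scores were seen. Single measures had exact permutation tests over libraries, and EGFP a sign-flip test with a pseudocount of 1 CPM. Genes were named as the 10 per direction with the lowest p among called genes with mean CPM of at least 20 and libraries apart (where none was called, the 5 with the lowest p), the 20 most abundant genes, markers, reporters and members of fixed lists. The cells and lists were chosen with earlier results of these data known. Results for 3 genes are not reported here.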

Additional observations from a re-analysis of the deposited data

How the results depend on the processing

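The number of genes called between KO and het moved most. Against 55, there were 240 at a globin limit of 60%, 2 at 80%, 27 in embryonic-beta-rich cells, 12 without scaling beyond library size and 203 without a filter on low counts. Cells under 25% adult-type beta gave 0 and adult-beta-rich cells alone gave 2, both chosen after seeing the data. Leaving out 1 library gave 59 to 394. Same-numbered libraries deviated together (r = 0.590 over 3352 genes), but with 2 pairs and no label that ties the numbers to a shared batch they share only a number. With the replicate block 539 genes were called, 439 higher and 100 lower. Between the beta types, 1866 genes became 1044 at a globin limit of 80% and 622 with each cell thinned to 500 non-globin UMIs, and 1405 to 1921 without 1 library. The difference in the share of high-globin cells, 1.04 points, became -0.0385 with the erythroid denominator and ranged from -3.95 to 6.02 without 1 library, with -1.02 without KO 1. The adult-type beta difference became -1.27 points at 80% globin. The Hbb-bh1 difference, -0.0296 points, became 0.0302 at 80% globin and 0.153 as a mean over cells, and ranged from -0.140 to 0.0810 without 1 library, with 0.0810 without KO 1 and 0.0418 without het 2. The alpha-type difference ranged from -0.526 (without het 1) to 2.30 points without 1 library. The EGFP log2 difference became -0.0389 at 60% globin, -0.127 with at least 1000 genes and -0.137 with the split at 25%, and ranged from -0.0521 to 0.275 without 1 library. Between the beta types, among genes named, Slc4a1 lost its call without a filter on low counts, Btg2 at 80% globin and with thinned cells, Tal1 with at least 1000 genes and the split at 25%, Hsp90aa1 with the split at 25% and Rrm2 with the split at 75%. The causes were not tested. The Hba-x difference, -4.45 points, kept its sign in the 10 alternatives run for it, with -2.63 at 80% globin (exact permutation p = 0.667) and -6.22 to -2.69 without 1 library. The difference in the adult-beta-rich share, 3.76 points, was 0.457 to 8.61 under 5 other choices of cells and 2.13 to 5.38 without 1 library, all tried after the values were seen. The 2 libraries a group, with unequal depth, limit every comparison of KO with het.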

Other observations

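Ribosomal protein genes, a group chosen after its values were seen, were mostly lower in adult-beta-rich cells. Of 85 Rpl and Rps genes tested, 82 had a log2 difference below 0 against embryonic-beta-rich cells, with a median of -0.91 and a range of -1.54 to 0.79, beside a median of -0.00 over all genes. No test was made on the group.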
